A study of Homo sapiens with 71 samples.

Results

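Metallothioneins are small, cysteine-rich proteins that bind zinc, copper and cadmium, and 6 of their genes, MT1E, MT1F, MT1G, MT1M, MT1X and MT2A, are described here in HepG2 cells exposed to surface water. The members were taken by gene symbol, 6 of the 31012 entries of the expression table. HepG2 is an established human hepatoma line. Dishes were seeded from pooled flasks, grown for 72 hours and then kept for 48 hours in medium of which 75% was water. At 16 Great Lakes tributary sites, named by the 4-letter codes BRWI, CRMI, CROH, FRWI, GRMI, GRNY, IHIN, JRMI, LRMN, MAWI, MIWI, MROH, ORNY, RRMI, SRMI and VROH, that water was a field sample passed through a 0.7 µm filter. In the 8 control dishes it was purified water passed through a 0.1 µm filter. All groups shared the medium, its serum and antibiotics, and the cell line. There were 4 dishes per site and 3 for MIWI, so 71 libraries in all. Field water and purified water differed in everything dissolved in them and in the filter, and these cannot be told apart. Each site was 1 water sample spread over its dishes, so the errors and p-values below measure the spread between dishes and not between waters of a site.

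Cells keep metallothionein genes at a low level and raise them when free zinc rises or cadmium enters. The zinc-sensing transcription factor MTF1 then binds metal response elements, short repeated motifs before the start of these genes. Glucocorticoids and inflammatory signals can raise them too, MT2A among them, and liver cells are among the strongest responders. The proteins store metal ions and take up reactive oxygen species. MT1G and MT1M are often silenced in liver cancers.

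The 6 genes lie in 1 cluster on the long arm of chromosome 16 (GENCODE release 29, GRCh38) that spans 75998 bases. In order along the chromosome they are MT2A (chr16:56608199-56609497), MT1E (chr16:56625475-56627112), MT1M (chr16:56632233-56633986), MT1F (chr16:56657694-56660698), MT1G (chr16:56666731-56668065) and MT1X (chr16:56682424-56684196). MT1G is on the minus strand and the other 5 are on the plus strand. Each has 3 exons and a coding sequence of 186 bases with its stop codon. Because the genes differed in response, the stretch before the start site is shown for the members that the RefSeq promoter table (GRCh38.p14) holds, MT2A and MT1X; MT1E, MT1F, MT1G and MT1M were not in it. Capitals mark every match to the core of the metal response element, TGCACNC or TGCGCNC, searched on both strands, as the 250 bases before the RefSeq start site on the plus strand, 5′ to 3′.
MT2A, chr16:56608334-56608583: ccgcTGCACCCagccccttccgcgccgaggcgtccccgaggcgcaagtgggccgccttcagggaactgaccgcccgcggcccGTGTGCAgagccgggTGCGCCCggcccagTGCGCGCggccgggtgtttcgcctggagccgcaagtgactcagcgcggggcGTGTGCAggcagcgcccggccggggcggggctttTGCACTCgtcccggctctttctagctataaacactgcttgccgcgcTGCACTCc
MT1X, chr16:56682220-56682469: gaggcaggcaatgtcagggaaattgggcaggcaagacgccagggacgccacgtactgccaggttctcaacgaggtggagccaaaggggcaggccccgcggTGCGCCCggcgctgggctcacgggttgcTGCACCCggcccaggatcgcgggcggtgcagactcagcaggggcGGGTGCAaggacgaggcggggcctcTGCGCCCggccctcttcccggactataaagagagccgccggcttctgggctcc
The MT2A stretch held 7 matches and the MT1X stretch 4. Over the same 250 bases, 24.8% of 35116 RefSeq promoters held at least 1 match, 0.37% at least 4 and 0.0313% at least 7. A match is a run of letters and was not tested as a binding site. GENCODE and RefSeq start these genes at different positions. The MT2A stretch lies inside the GENCODE gene given above, and the MT1X stretch runs into it.

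**Figure D1:**
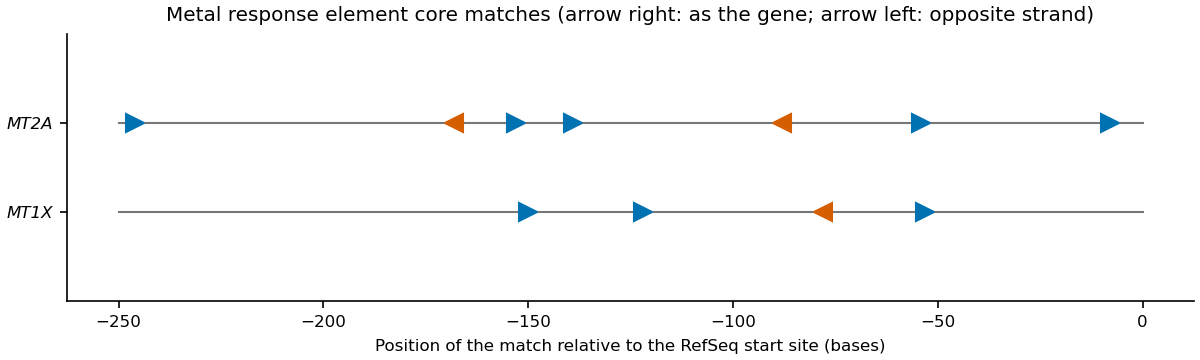
Matches to the metal response element core before the start site of MT2A and MT1X. The x axis is the position in bases relative to the RefSeq start site, and each arrow is a match, pointing right where it reads as the gene does and left where it is on the opposite strand; MT2A has 7 arrows and MT1X has 4.

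The members are close copies of one another, which bears on how reads are assigned. Over the coding sequence, pairs of members were between 88.71% and 95.16% identical, MT1F with MT1X the lowest and MT1G with MT2A the highest. The neighbours MT1E and MT1M are shown because their levels went different ways below. Capitals mark the 14 bases of 186 at which they differ, in the coding sequences of GENCODE release 29, 5′ to 3′.
MT1E: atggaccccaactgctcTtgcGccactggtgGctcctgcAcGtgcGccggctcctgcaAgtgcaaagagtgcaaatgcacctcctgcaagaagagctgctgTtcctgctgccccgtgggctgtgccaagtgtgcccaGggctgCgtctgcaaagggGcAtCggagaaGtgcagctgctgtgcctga
MT1M: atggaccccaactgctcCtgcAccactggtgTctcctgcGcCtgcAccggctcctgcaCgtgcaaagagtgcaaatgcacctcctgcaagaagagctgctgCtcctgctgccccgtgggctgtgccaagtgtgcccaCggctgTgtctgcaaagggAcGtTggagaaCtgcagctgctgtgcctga
Of the 25-base windows of the main transcript, the share found in any of the 17 other metallothionein genes and pseudogenes, in the cluster or elsewhere, ran from 8.79% for MT2A to 36.9% for MT1G. TempO-Seq, the assay used, reads each transcript through short probe pairs that are ligated where they meet, and the sources used here do not give the probe positions. If probes lie in a shared stretch, they may not tell 1 gene from another, so the values of single members are uncertain. The extent is not known, and the shares of windows do not measure it. Levels of different members are not compared, since each gene is read through its own probes.

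Total counts were between 8.18 and 14.5 M (1e6 counts) in the controls and between 2.91 and 9.89 M in the site libraries, except for VROH 2 with 8872 counts in all. VROH 2, CRMI 1 and SRMI 3 stood apart from their sites, with an SD of log2 differences of 3.05, 1.90 and 1.20 over 3361 features. They stayed in the fits, and values without them are given where they change a result. In VROH 2 MT1F had 3 counts and the other 5 members had 0. In that library 3 counts came to 58.7 CPM (counts per 1e6, with library totals scaled by TMM) and to 338 CPM of its own unscaled total, so its zeros hold little information. Of the 9 hepatocyte markers all were tested and 0 passed at the mean of sites, where 0.0576% of all features did. Of the markers of other cell types, 3 of 5 immune, 1 of 5 fibroblast and stellate, 2 of 4 endothelial and 1 of 4 other epithelial genes were tested, and 0 passed at the mean of sites. The highest of them in the controls were EPCAM, an epithelial adhesion gene, at 2989 ± 315 CPM (n = 8) and LYZ, the lysozyme of myeloid cells, at 1651 ± 204 CPM, while the leukocyte gene PTPRC and the endothelial receptor KDR had 0 counts in every library.

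The first question was whether the members differed between field water and purified water over all sites, with each site weighted equally. MT1M, MT1G and MT2A rose, to between 1.70 and 1.97 times the control level, and MT1E, MT1F and MT1X did not pass. Of the 4 members over the filter on low counts in all 8 controls, MT1E, MT1G, MT1M and MT2A, 3 were called higher (adjusted p under 0.05 by edgeR's quasi-likelihood test), where 0.0576% of the 6947 features tested were. Their median log2 change was 0.79, and that of all features was -0.02. MT1F and MT1X reached the filter on low counts in 10 and 5 site libraries and in 0 control libraries, so they could be tested only because some site libraries were high, and no count below includes them unless it says so.

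MT1M, the member with the smallest p, ran from 10.7 to 22.9 CPM in the controls with a median of 15.7. Of the 63 site libraries, 51 were above the highest control and 1, VROH 2, was below the lowest. The mean went from 16.5 ± 3.80 CPM (SD, n = 8) to 34.7 CPM over the sites, up by 0.98 ± 0.12 on the log2 scale (SE, adjusted p = 2.05e-07). The fitted log2 change was above 0 at 16 of 16 sites, and the mean CPM exceeded that of the controls at all but VROH (14.5 CPM with VROH 2).

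MT1G carried the most counts of the 6, from 1597 to 3506 in a control library. Its controls ran from 189 to 303 CPM with a median of 229, and 53 of 63 site libraries were above the highest of them. The log2 change was 0.81 ± 0.12 (adjusted p = 2.19e-05 by edgeR), and VROH alone, with VROH 2 in it, was not above the controls (-0.02). Without VROH 2 the mean of MT1G at VROH was 261 CPM, against 233 CPM in the controls. MT2A, the sole member of the MT2 subfamily here, ran from 6.24 to 10.6 CPM in the controls with a median of 9.32. Of its site libraries 50 of 63 were above the highest control. Its log2 change was 0.77 ± 0.17 (adjusted p = 0.0388), and it was above 0 at 16 of 16 sites, while the mean CPM at VROH (8.33, with VROH 2) lay below the 8.93 of the controls. This call was lost in 16 of the 71 fits that left out 1 library, those without 1 of the 8 controls and those without CRMI 2, CROH 4, GRMI 1, GRMI 3, JRMI 3, MIWI 2, VROH 3 or VROH 4, where the adjusted p reached 0.237 and the log2 change was 0.71 or more.

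The other 3 members did not pass over all sites. MT1X had between 1 and 6 counts in a control library, 0.372 ± 0.168 CPM (SD, n = 8), and averaged 0.909 CPM at the sites; the log2 difference was 1.16 ± 0.29, short of the threshold (adjusted p = 0.215). It was the largest value of the 6 and the least precise. MT1F, with 3 to 9 counts in a control library, had a log2 value of 0.75 ± 0.28 (adjusted p = 1.00). MT1E was the member whose mean lay below the controls: 14.9 ± 2.91 CPM (n = 8) against 12.0 CPM over the sites, with a log2 difference of -0.32 ± 0.14 (adjusted p = 1.00). At 3 of 16 sites it exceeded the control mean, and 2 of its 63 site libraries were above the highest control.

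**Figure D2:**
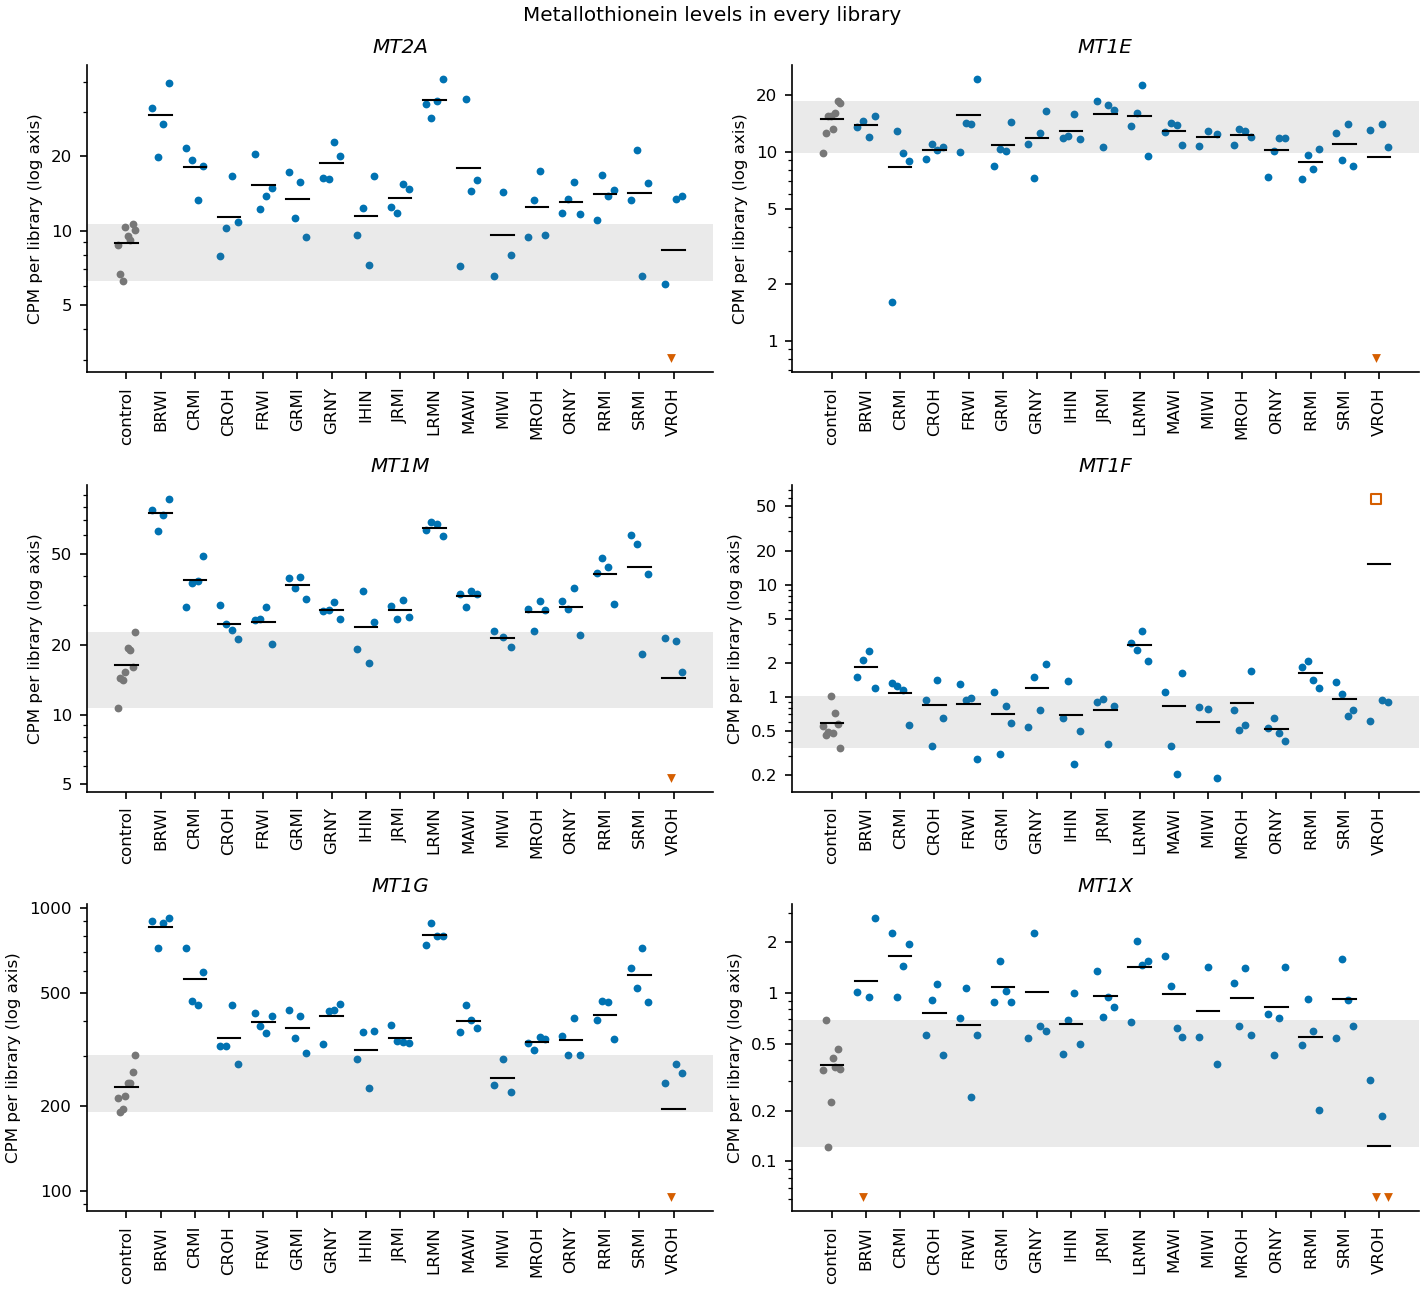
Level of each member in every library, in CPM on a log axis, with the controls first and the sites in alphabetical order. Points are libraries, the black line is the group mean, the grey band is the range of the 8 controls, orange triangles mark libraries with 0 counts (drawn at the foot of the panel) and the orange square is VROH 2, whose 3 counts of MT1F come to 58.7 CPM. MT1G and MT1M stand above the band at most sites and highest at BRWI and LRMN, while 2 MT1E points among the sites lie above it.

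Each site was then compared with the same 8 controls, so the 16 comparisons share them. The members passed unevenly: for the 4 members over the filter in the controls, 22 of 64 comparisons with a site were called higher and 1 lower. Over all features and sites, 0.436% were called higher and 0.447% lower. Without VROH 2, CRMI 1 and SRMI 3, which earlier results of these data had shown to stand apart, 31 of the 64 were called higher, and the share of all features called higher was 1.89%. MT1M was called at 10 sites, MT1G at 7 and MT2A at 5. MT1E was called higher at 0 sites and lower at 1. MT1F was called at 1 site and MT1X at 3, described apart below because high site libraries alone brought them into the test.

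Of the 4 members, MT1G, MT1M and MT2A were all called higher at LRMN, where 2.20% of all features were, at BRWI (0.101% of all features), at GRNY (0.0720%), at MAWI (0.202%) and at CRMI (2.02%), where MT1E was called lower (1.73%). RRMI had 2 (0.518%) and SRMI 2 (0.820%). GRMI (0.0144%), JRMI (0.0432%) and ORNY (0.0576%) had 1 each. At CROH, FRWI, IHIN, MIWI, MROH and VROH 0 members were called; the share of all features called higher there was 0.835% at CROH, 0.101% at VROH and 0 at the other 4 sites. At CROH, then, more features were called in this fit than at BRWI, and no metallothionein among them. Without VROH 2, CRMI 1 and SRMI 3, the edgeR test called MT1G and MT1M higher at CROH, FRWI and MROH. The adjusted p was 0.00162 and 0.00807 at CROH, 0.000141 and 0.0184 at FRWI, and 0.0361 and 0.00715 at MROH. The share of all features called higher was then 4.32%, 1.07% and 0.0434% at these sites. At IHIN, MIWI and VROH again 0 members were called, where 0.13%, 0 and 0.0578% of all features were called higher. At IHIN MT1G and MT1M fell just short in this edgeR fit, each with an adjusted p of 0.0538.

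The 4 libraries of LRMN had MT1G at 744, 884, 796 and 795 CPM, and those of BRWI at 899, 722, 885 and 922. All 8 stood above every control and above every library of the other 14 sites except SRMI 3 at 724, which passed the lowest of BRWI. The log2 change was 1.79 ± 0.17 at LRMN (adjusted p = 2.05e-11) and 1.88 ± 0.17 at BRWI (4.37e-12). MT1M was at 63.1, 68.8, 67.3 and 59.9 CPM in LRMN and at 77.1, 63.0, 73.6 and 86.5 in BRWI. None of these overlapped the controls, and the log2 change was 1.97 ± 0.17 at LRMN (4.78e-13) and 2.19 ± 0.17 at BRWI (1.24e-14). MT2A was at 32.6, 28.4, 33.3 and 40.9 CPM in LRMN and at 31.2, 19.9, 26.9 and 39.6 in BRWI. Again no library overlapped the controls, whose highest was 10.6. The robustness of a site's calls was read from the fits that left out 1 of its own libraries, 1 control or VROH 2, 13 fits for a site of 4 libraries. These 6 calls held in all 13. In the direct comparison of LRMN with BRWI, MT1E, MT1G, MT1M and MT2A were not called (adjusted p between 0.668 and 0.924). Over all pairs of sites 4.46% of features were called, so the lack of a call is not particular to these members. MT1F, which libraries of both sites had brought over the filter, had the widest difference. Its log2 value was -0.67 ± 0.46 for BRWI minus LRMN (adjusted p = 0.544).

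MT1F and MT1X, the members with few counts, were called at few sites. MT1F was at 3.04, 2.60, 3.92 and 2.11 CPM in LRMN against 0.352 to 1.02 in the controls (median 0.523), from 14 to 18 counts per library. All 4 LRMN libraries lay above every control, as for 4.62% of all features, and the log2 change was 2.27 ± 0.39 (adjusted p = 0.00011). All 4 LRMN libraries were among those that took MT1F over the filter, so this p is no independent support. With no filter, where every feature with counts is tested, the adjusted p was 0.000166. The call held in 13 of 13 single-library fits, but these kept the filter and reused the LRMN libraries that had brought MT1F over it. BRWI and RRMI also had 4 of 4 libraries above every control for MT1F, as for 1.97% and 2.22% of all features. The log2 values were 1.60 ± 0.44 (adjusted p = 0.145) and 1.50 ± 0.40 (0.051). BRWI 2, BRWI 3, RRMI 1 and RRMI 2 were also among the libraries over the filter, so this is no independent support either. MT1X was at 2.28, 0.945, 1.45 and 1.96 CPM in CRMI against 0.122 to 0.693 in the controls (median 0.357). All 4 were above every control, as for 3.50% of all features. The log2 change was 2.15 ± 0.43 (adjusted p = 0.00258, and 0.00975 with no filter), from 3 to 17 counts a library. CRMI 1 and CRMI 4 were among the 5 site libraries that took MT1X over the filter, as were LRMN 2 and BRWI 4. The filtered MT1X p-values at these sites are therefore no independent support. The MT1X calls at LRMN (1.88 ± 0.43) and BRWI (1.86 ± 0.44) were less stable. Without LRMN 2 the adjusted p at LRMN was 0.0582. The BRWI call ended in 10 of 13 fits, those without BRWI 1, 3 or 4 or any control but CTRL 2. Without BRWI 4 its log2 value was 0.89. With no filter MT1X had an adjusted p of 0.00983 at LRMN and 0.133 at BRWI. In BRWI 2 it had 0 counts, which allows up to 1.07 CPM.

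CRMI, SRMI and RRMI had the next highest means of MT1G and MT1M. The lowest of them was not called different from the next site by the edgeR test. For MT1G this was RRMI against GRNY (adjusted p = 0.99) and for MT1M CRMI against GRMI (0.962). In CRMI MT1G was at 721, 470, 455 and 595 CPM, and in SRMI at 615, 523, 724 and 464. All 8 were above every control; the log2 change was 1.27 ± 0.18 at CRMI (adjusted p = 7.62e-06) and 1.32 ± 0.18 at SRMI (1.10e-06). In RRMI it was at 343 to 469 CPM, with every library above the controls, a log2 change of 0.85 ± 0.18 (0.00255). MT1M was higher by 1.40 ± 0.18 at SRMI, although SRMI 3, at 18.3 CPM, lay inside the control range while the other 3 libraries had 40.9 to 60.2. MT2A in SRMI 3 was at 6.56 CPM, also inside that range, while MT1G there was the highest of its site. MT1M was higher by 1.31 ± 0.17 at RRMI and by 1.21 ± 0.18 at CRMI. These calls of MT1G and MT1M at CRMI, SRMI and RRMI each held in 13 of 13 single-library fits.

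Several of the smaller changes were called with an adjusted p near the threshold, and leaving out 1 library often ended the call. At GRNY MT1G (0.83 ± 0.18), MT1M (0.78 ± 0.18) and MT2A (1.07 ± 0.25) were called with an adjusted p between 0.0345 and 0.044, and 7, 11 and 11 of the 13 single-library fits ended the calls, with an adjusted p as high as 0.209. For MT1G these were the fits without CTRL 2 to 5 or GRNY 2 to 4, for MT1M those without any GRNY library or CTRL 1 to 7, and for MT2A those without any GRNY library or any control but CTRL 7. The 4 GRNY libraries nevertheless lay above every control for all 3 members. At MAWI MT1M rose from 15.7 CPM, the control median, to between 29.4 and 34.4 in its 4 libraries and kept its call in all 13 fits. MT2A at MAWI was at 7.20, 33.9, 14.5 and 16.1 CPM, so that 1 library lay inside the control range, and without MAWI 2 the log2 value went from 1.01 to 0.52. That call was also lost without MAWI 3, MAWI 4 or CTRL 1, 2, 3, 6 or 8, and the MT1G call at MAWI (0.78 ± 0.18) without MAWI 1, 2 or 3 or CTRL 2 (adjusted p up to 0.0737). The MT1M calls at JRMI (0.78 ± 0.18) and ORNY (0.84 ± 0.18) were lost in 8 of 13 fits (without any JRMI library or CTRL 1 to 4) and in 3 of 13 (without ORNY 1, 2 or 3), and that at GRMI (1.15 ± 0.18) in 0. MT2A at CRMI (1.02 ± 0.25) was lost without CRMI 1 alone. Without VROH 2, CRMI 1 and SRMI 3 together, the edgeR test called it (0.92 ± 0.28, adjusted p = 0.0297). In that fit all the calls of this paragraph passed. The adjusted p was at most 0.00517 at GRNY and 0.00572 at MAWI, and for MT1M 0.00107 at JRMI and 0.000235 at ORNY. The share of all features called higher in it was 2.96% at CRMI, 4.35% at GRNY, 2.15% at MAWI, 1.78% at JRMI and 1.45% at ORNY.

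A count of libraries that lie outside the control range ordered the sites differently from the count of calls. Of the same 4 members, MT1G, MT1M and MT2A had every library above every control at BRWI (1.97% of all features did), CRMI (3.50%), GRNY (2.25%), JRMI (2.09%), LRMN (4.62%) and RRMI (2.22%). It was so for 2 members at FRWI (1.94%), GRMI (1.55%), MAWI (2.16%), MROH (0.907%) and ORNY (1.02%). At SRMI 1 member did (1.07%), MT1G. At CROH (3.71%), IHIN (2.36%), MIWI (1.67%) and VROH (0.115%) 0 members did. So MT1G at FRWI (363 to 425 CPM), JRMI (332 to 387) and MROH (316 to 351) lay wholly above the controls and yet did not pass. Without VROH 2 alone MT1G was called at CROH, FRWI, GRMI, JRMI and ORNY too.

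**Figure D3:**
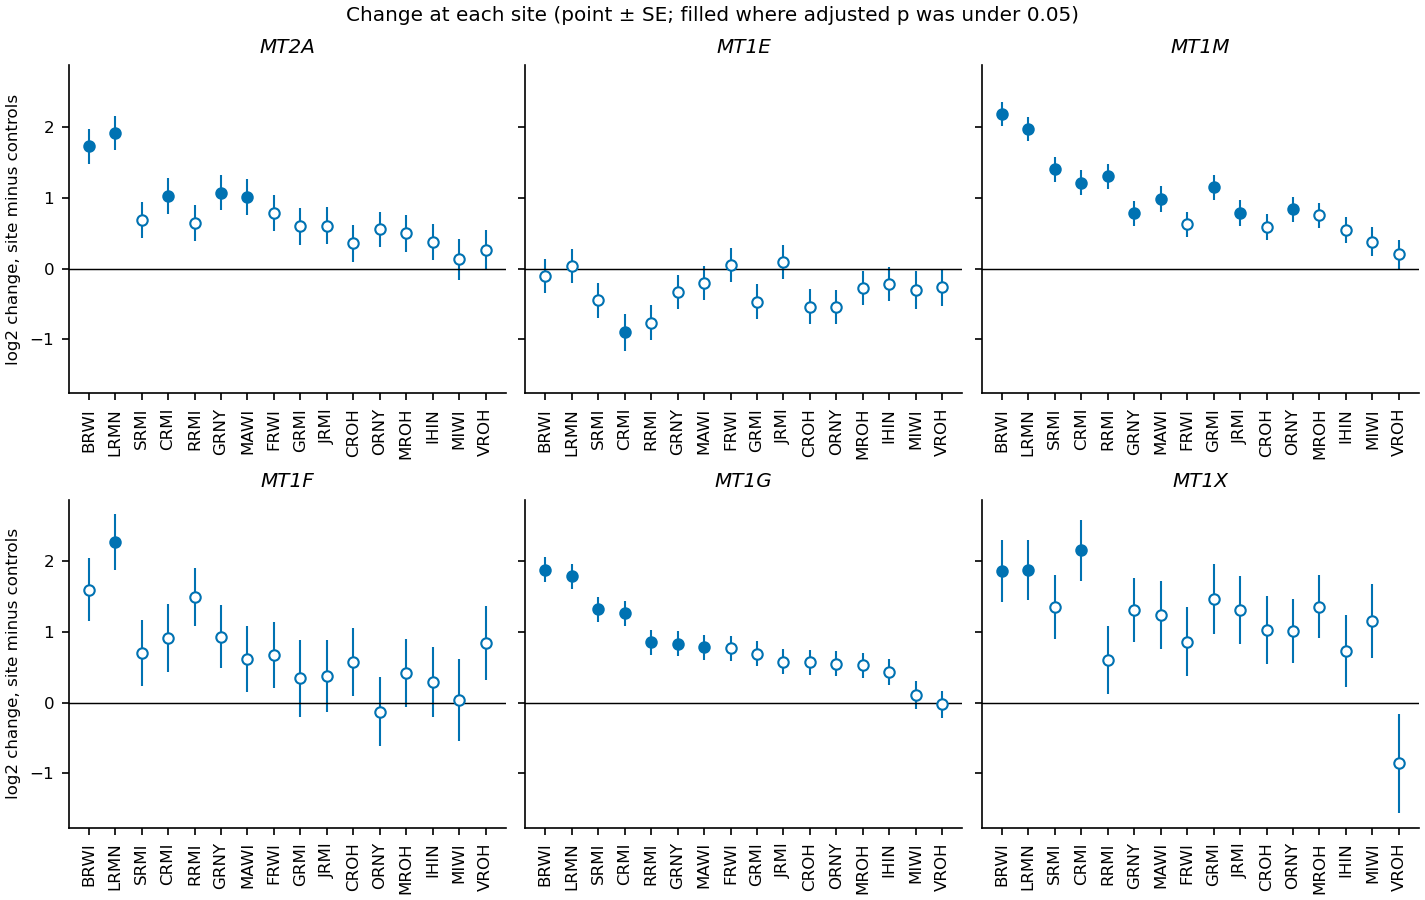
Change of each member at each site against the controls on the log2 scale, with its SE; sites are in the order of MT1G, and filled points had an adjusted p under 0.05 by edgeR. MT1G, MT1M and MT2A fall off together from BRWI and LRMN to MIWI and VROH, and MT1E lies near or below 0 throughout.

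MT1E did not rise with its neighbours. At LRMN, where MT1G, MT1M and MT2A were called higher, MT1E was at 13.7, 16.0, 22.5 and 9.44 CPM, and the controls ran from 9.89 to 18.5 with a median of 15.4. LRMN 3 lay above the controls, LRMN 4 below them and the other 2 inside, and the log2 value was 0.04 ± 0.24 (adjusted p = 0.98). At BRWI it was at 13.4, 14.6, 12.0 and 15.4 CPM, all inside the control range. The single call, at CRMI (-0.90 ± 0.26, adjusted p = 0.0356), rested on CRMI 1: that library had 12 counts, 1.61 CPM, against 12.9, 9.83 and 8.96 in the others. Without it the log2 value was -0.48 (adjusted p = 0.262), and the fits without CTRL 4, 6, 7 or 8 ended the call as well. At RRMI MT1E was at 7.17, 9.56, 8.08 and 10.3 CPM, 3 of 4 below every control, a log2 value of -0.76 ± 0.24 (0.159). Without the 3 libraries that stand apart, MT1E was called lower at RRMI (-0.78 ± 0.19, adjusted p = 0.00908) and CROH (-0.55 ± 0.19, 0.0479) and not at CRMI (-0.50 ± 0.22, 0.152).

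Whether the sites differed from one another was asked of the 16 site means without the controls. By the F test of the same model, 3 of the 4 members over the filter in the controls differed between sites, where 29.8% of all features did. MT1M (F = 13.9, adjusted p = 1.27e-11), MT1G (13.0, 3.60e-11) and MT2A (5.94, 6.33e-06) differed. MT1F had an F of 3.20 (0.00425) and MT1X 2.27 (0.0454), but a gene that enters through a few high site libraries is bound to vary between sites. With no filter the adjusted p was 0.00609 for MT1F and 0.106 for MT1X, and MT1X lost its call in 39 of 71 single-library fits, with an adjusted p of 0.104 at most. MT1E, with 1.91 (0.106), was not called, and was called without CRMI 2 (2.36, 0.037) and without the 3 libraries (2.58, 0.0135).

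The highest and lowest site means were 4.39-fold apart for MT1G (857 CPM at BRWI, 195 at VROH), 5.19-fold for MT1M (75.0 and 14.5) and 4.06-fold for MT2A (33.8 at LRMN, 8.33 at VROH). VROH 2, with its zeros, is in the lowest means. Without it VROH had 261 ± 20.5 CPM of MT1G, 19.3 ± 3.40 of MT1M and 11.1 ± 4.35 of MT2A (n = 3), close to MIWI with 250 ± 36.5, 21.5 ± 1.64 and 9.60 ± 4.09 (n = 3). In descending order the MT1G means were BRWI, LRMN, SRMI, CRMI, RRMI, GRNY, MAWI, FRWI, GRMI, JRMI, CROH, ORNY, MROH, IHIN, MIWI, controls and VROH. For MT1M the order was BRWI, LRMN, SRMI, RRMI, CRMI, GRMI, MAWI, ORNY, JRMI, GRNY, MROH, FRWI, CROH, IHIN, MIWI, controls and VROH. Neighbours in these orders were not called by the edgeR test: 0 of 16 neighbouring pairs were called for each of the 6 members. Neighbours are the groups with the closest means, so few calls were possible and the lack of them does not show equal levels. The smallest adjusted p was 0.0586, between LRMN and SRMI for MT1M. The ranges of neighbours overlapped except for LRMN and SRMI in MT1G, the step from 744 to 724 CPM.

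Sites further apart did differ. Of the 120 pairs of sites, 36 were called for MT1M, 34 for MT1G, 20 for MT2A, 9 for MT1F, 3 for MT1E and 2 for MT1X. Over all features 4.46% of pairs were called. BRWI was in 14 of the 36 MT1M pairs and LRMN in 12, and each was in 12 of the 34 MT1G pairs. All 3 MT1E pairs had CRMI in them. Without the 3 libraries the 93 called pairs of MT1E, MT1G, MT1M and MT2A became 131, while the share of pairs called over all features went from 4.46% to 11.4%.

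The ratio of a member to MT1G within a library does not depend on the library's scaling, so it shows whether the members changed in step. It was taken as log2 of both counts after 0.5 was added, and each site was set against the controls by a two-sided exact permutation test with Benjamini-Hochberg adjustment over the 80 ratios. The smallest p that 4 libraries against 8 allow is 0.00202. A member that stays level has a lower ratio wherever MT1G rises, and features outside the family were not put through this test. For MT1E the ratio was lower at 15 of 16 sites and passed at 12, with a median difference of -1.09 on the log2 scale. In the controls it was -3.97 ± 0.24 (SD, n = 8; lowest -4.42, highest -3.66). At BRWI it was -5.94 ± 0.25 (n = 4), 1.97 lower than in the controls (exact p = 0.00202, adjusted p = 0.0147). At SRMI it ran from -5.84 to -5.60 over all 4, and the difference was -1.75 (exact permutation p = 0.00202, adjusted p = 0.0147). The widest difference, -2.39 at CRMI, rests in part on CRMI 1. The 4 sites that did not pass were IHIN (-0.62), JRMI (-0.51), MIWI (-0.40) and VROH (0.69), the last set by the zeros of VROH 2. Without the 3 libraries the ratio was lower at 16 of 16 sites and passed again at 12, with BRWI as the widest.

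The other members kept closer to MT1G. Of the 16 ratios each, 0 passed for MT2A, MT1F and MT1X. MT2A to MT1G lay between -0.74 at SRMI and 1.23 at VROH, and without SRMI 3, VROH 2 and CRMI 1 between -0.30, again at SRMI, and 0.24 at GRNY. MT1M to MT1G was higher at 12 of 16 sites and passed at GRMI (0.48) and RRMI (0.46). A ratio that did not pass does not show that the members changed alike, and for MT1F and MT1X the few counts leave wide ranges.

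**Figure D4:**
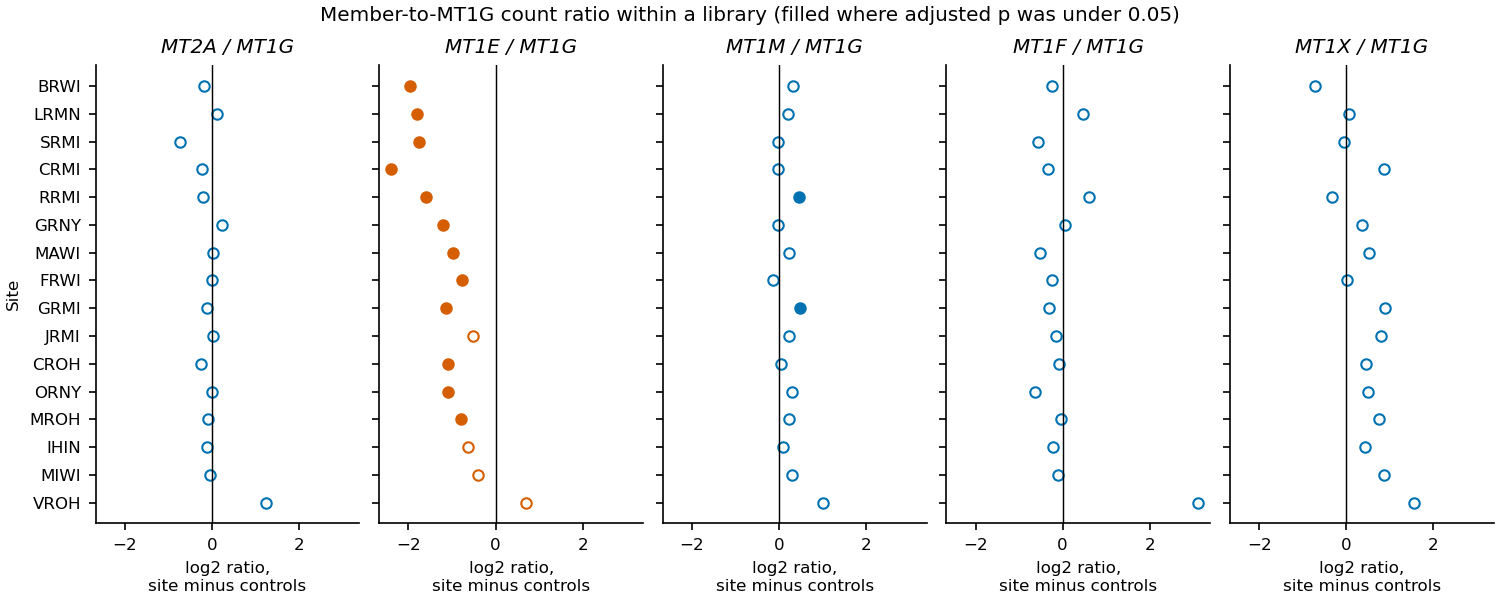
Difference between each site and the controls in the log2 ratio of a member to MT1G within a library, with sites in the order of their MT1G change. Filled points had an adjusted p under 0.05 by the exact permutation test; MT1E (orange) is lower at 15 of 16 sites and passes at 12, and the points at VROH are moved by VROH 2.

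Over the 17 group means of log2 CPM, MT1G ran with MT1M (r = 0.96) and with MT2A (0.93), and MT1M with MT2A (0.93). These are descriptions over means that share libraries, depth and the same scaling. Without the 3 libraries the values were 0.96, 0.96 and 0.88. MT1E with MT1G went from 0.55 to 0.03. MT1X with MT1G was at 0.81 and then 0.60. MT1F with MT1G, at -0.02 over all libraries, was at 0.84 without the 3 libraries. Among libraries of the same group, after the group means were taken out, MT1G and MT1M deviated together (r = 0.60 over 68 libraries without the 3), and so did MT1G and MT2A (0.59), while MT1M with MT2A was at 0.14 and MT1E with MT1G at 0.03.

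The rest of the metallothionein family was hardly read. Of 12 other family genes and pseudogenes 10 were in the table, 8 had counts and 0 passed the filter. MT1A, between MT1M and MT1F in the cluster, had 263 counts over all libraries, 0.53 ± 0.297 CPM in the controls (n = 8) and 0.603 CPM over the sites. MT1L had 49 counts, MT1JP 41, MT3 37, MT1HL1 22, MT4 7, MT1B 3 and MT1H 2, and MT1DP and MT1IP had 0.

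Genes on both sides of the cluster were not called against the controls. Of 8 flanking genes 5 were tested, and 0 of their 80 site comparisons were called. Over all features and sites 0.436% were called higher and 0.447% lower, so the lack of calls is not particular to these genes. By the F test 3 of the 5 differed between sites, where 29.8% of all features did. They were OGFOD1 (adjusted p = 0.00485), BBS2 (0.0106) and HERPUD1 (0.000199). The highest site was GRMI for OGFOD1, CRMI for BBS2 and LRMN for HERPUD1, whose log2 value there was 0.29. The median log2 value at the mean of sites was -0.09. BBS2, on the MT4 side, was at -0.09 ± 0.14, and HERPUD1, a stress gene of the endoplasmic reticulum beyond MT1X, was at -0.10 ± 0.09, both with an adjusted p of 1.00.

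Zinc and copper handling had 9 genes tested, with 0 called at the mean of sites and 0 of 144 site comparisons. MTF1 itself was at 2.30 ± 0.53 CPM (n = 8) in the controls and 2.44 CPM over the sites, with a log2 difference of 0.10 ± 0.15 (adjusted p = 1.00). Its log2 values were -0.03 at LRMN and -0.15 at BRWI, the sites with the highest members. The copper exporters ATP7A and ATP7B and the copper chaperones ATOX1, CCS and COX17 were at -0.01 to 0.11. Zinc transporters of the SLC families come after the last symbol of the table held here and were not analysed.

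Of 16 genes of metal and proteotoxic stress tested, 0 passed at the mean of sites, where 0.0576% of all features did. The median of the 16 was -0.01. HMOX1, the haem oxygenase that cadmium and oxidants raise, was at -0.02 ± 0.08 and at 0.19 at LRMN (adjusted p = 0.447) and -0.07 at BRWI (0.981). The inducible chaperone HSPA1B was at -0.01 ± 0.11, and the glutathione synthesis genes GCLM and GCLC were at -0.07 ± 0.15 and -0.01 ± 0.13. Of 256 site comparisons 1 was called higher and 1 lower, both in OSGIN1, an oxidative stress gene, with 1.01 at GRNY and -1.30 at CRMI. The shares over all features and sites were 0.436% higher and 0.447% lower. Among glucocorticoid targets 8 were tested, and MT2A, a member itself, gave the 1 call at the mean of sites and all 5 site calls. FKBP5, a common read-out of the glucocorticoid receptor, gave the 1 lower call, -0.59 at LRMN (adjusted p = 0.0142), and was at -0.60 at BRWI (0.0906).

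In the acute phase list, 13 genes of the inflammatory liver response were tested, with 0 called at the mean of sites and 0 higher at any site. HAMP, which encodes the iron hormone hepcidin, was called lower at LRMN and BRWI and ITIH3 at CRMI. Of 12 iron genes tested, HFE at CRMI (0.47) and IREB2 at LRMN (0.75) were called higher, besides the 2 lower calls of HAMP. In the marker lists LYZ was called higher at LRMN (1.01) and lower at CRMI (-1.08), and CDH5 lower at LRMN (-2.01). Of 5 immune markers 4 had counts, summing to 1512 to 2128 CPM in the controls and 606 to 3885 CPM in the site libraries other than VROH 2, most of it LYZ. Of 4 endothelial markers 3 had counts, summing to 1.92 to 3.87 CPM and 0.679 to 4.52 CPM. The 5 fibroblast and stellate markers summed to 33.7 to 56.9 CPM and 16.5 to 59.8 CPM, most of it ACTA2, and the 4 other epithelial markers to 2463 to 3538 CPM and 2285 to 6515 CPM, most of it EPCAM. Their part in the metallothionein results was not tested.

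The features whose group means ran most like a member were ranked by Pearson's r over the 17 groups, among 5107 features outside the family. For MT1G they were ATP6V0E2 (r = 0.92), FAM3B, IGFBP1, PIK3R1 and HEATR5B, and for MT1M HPS5 (0.84), ATP6V0E2, IGFBP1, ENTPD4 and FAM3B. For MT2A they were HPS5 (0.85), ENTPD4, CES3, IGFBP2 and FAM3B. The most opposite were PODN, MRE11 and DGKD for MT1G (-0.86 to -0.84), PROCA1, ARID5B and HCAR2 for MT1M (-0.76), and PROCA1, KANK4 and AVPI1 for MT2A (-0.83 to -0.74). By the F test between sites ENTPD4, IGFBP2, CES3, HCAR2 and MRE11 were called (adjusted p at most 0.0371), as were 29.8% of all features. The other features named so far in this paragraph, ATP6V0E2 (0.506) among them, were not. These rankings changed without VROH 2, in which all 3 members were at 0, CRMI 1 and SRMI 3; the part of each alone was not tested. Without the 3 libraries ATP6V0E2 was at 0.67 with MT1G, HPS5 was at 0.47 with MT1M and at 0.68 with MT2A, and PODN was at -0.30 with MT1G. In that ranking, added after seeing the data, ACTN4 came first for MT1G (0.74) and MT2A (0.73) and IGFBP1 for MT1M (0.74). Neither ACTN4 (adjusted p = 0.957) nor IGFBP1 (0.331) was called by the F test between sites over all libraries. Each was called against the controls at 0 sites. HAMP was then the most opposite feature for MT1G (-0.74) and MT1M (-0.71), and ID2 for MT2A (-0.78), followed by HAMP (-0.77). HAMP was at 21.8 ± 4.01 CPM in the controls (n = 8), and at 1.32 CPM in LRMN and 5.34 CPM in BRWI, the sites where MT1G, MT1M and MT2A were highest.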

How the data were processed

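Per the labels' protocols, TempO-Seq was run on RNA of 71 dishes, and the submitters' processing notes name Salmon and GRCh38. The Salmon version, the probe list and any normalization were not stated in the sources used. Expected counts (estimated read counts) per gene were deposited by the authors and rounded here to whole numbers. The table held here ends before RAI14, and later symbols were not analysed. Numbers of GRMI and MIWI libraries are those of the table's columns.

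Counts were fitted with edgeR 4.0.16 (R 4.3.3, limma 3.58.1) by its quasi-likelihood test (TMM scaling, 17 group means, 54 residual degrees of freedom). Of 12425 features with any count, filterByExpr at a count of 10 left 6947. The p-values of each comparison were adjusted over these features by the Benjamini-Hochberg method, and a feature is called where the adjusted p is under 0.05. CPM are scaled by TMM, with SD over libraries; log2 changes carry the SE from the test. Ratios of 2 members used 0.5 added to each count and exact permutation tests. Counting floors are 3 counts and cover counting error only, since reads carry no molecular identifiers. The procedure was tested on simulated data.

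Members and lists were chosen with earlier results of these data known. Named genes are the 6 members, of each other list the genes called at the mean of sites and up to 4 called at the most sites, and the 5 features most like and 3 most opposite to MT1G, MT1M and MT2A. Other genes named from the lists are outside this rule and were chosen for what they encode, with their values seen. Alternatives were DESeq2 1.42.0, RLE size factors, no filter, the replicate number as a block, leaving out libraries, thinning to 2.91 M counts, and a site with the controls alone. Figures were drawn with matplotlib 3.10.9.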

Additional observations from a re-analysis of the deposited data

Results flagged for a closer look

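In 5 of the 96 combinations of a member and a group of 4 to 8 libraries, 1 library lay apart from the rest by Dixon's ratio, and chance gives about 1 in 20. MT1F in VROH 2 was at 58.7 CPM, from 3 counts, against at most 0.934 in the other VROH libraries, and MT1G in VROH 2 was at 0 against at least 240 CPM. MT1X in GRNY 2 was at 2.28 CPM, with the other GRNY libraries at 0.545 to 0.637, and lay outside the control range. MT1G in JRMI 1 was at 387 CPM and the other JRMI libraries were at 332 to 338. MT1E in IHIN 3 was at 15.8 CPM, inside the control range, with the others at 11.7 to 12.1.

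The effect against the shared controls differed between the 16 sites, by the F test of the edgeR model, for MT1M (F = 13.9), MT1G (13.0), MT2A (5.94), MT1F (3.20) and MT1X (2.27). Their adjusted p-values stand in the report. MT1F and MT1X were tested only because a few site libraries were high, and with no filter MT1X had an adjusted p of 0.106.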

How the results depend on the processing

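These counts are over all 6 members, MT1F and MT1X included. The number of members called at the mean of sites was 3, and 2 to 3 under the alternatives: DESeq2, RLE size factors, thinning and leaving out VROH 2, CRMI 1 and SRMI 3 gave 3, and no filter gave 2. Between sites 5 members were called, MT1F and MT1X among them, where 29.8% of all features were. DESeq2 gave 3 and thinning every library to 2.91 M counts also gave 3, and the cause was not tested. Site calls numbered 26, with 29 by DESeq2, 18 without the filter, 18 after thinning, 31 with each site and the controls alone and 37 without the 3 libraries. MT1F and MT1X gave 4 of the 26 and 6 of the 37. The share of all features called higher went from 0.436% to 1.89% without the 3 libraries, so that rise is not particular to the members. Shares under the other settings are not given here. Without 1 library each the site calls ran from 20 to 33, the members at the mean of sites from 2 to 3, the members between sites from 4 to 6, the called ratios from 12 to 19 and the called MT1E ratios from 11 to 13. Adding 1 count to both members of a ratio gave 14 of 80 again. Over all results and settings 0 changed sign while called.

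Same-numbered libraries did not deviate together: their median correlation was 0.005, and 4 of 67 libraries correlated best with their own number. With the replicate number as a block, 2 members were called at the mean of sites, 4 between sites and 21 site comparisons; GRMI 1 and MIWI, whose columns carry no label number, could not enter that fit.

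Depth limits MT1F and MT1X, with at most 9 counts in a control library, and every value that holds VROH 2.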
